A study of Mus musculus with 9 samples.

Results

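Prostaglandins and the related prostacyclin and thromboxane, together the prostanoids, are short-lived lipids that act close to the cells that make them. A phospholipase A2 frees arachidonic acid from membranes, a cyclooxygenase (Ptgs1 or Ptgs2) converts it to the intermediate PGH2, and a terminal synthase turns PGH2 into 1 product: Ptges makes PGE2, Ptgis makes prostacyclin and Ptgds makes PGD2. Each product binds its own G protein-coupled receptors. Ptger3 and Ptger4 bind PGE2 and Ptgfr binds PGF2α. In tendon, PGE2 is best known from studies of loading and injury, and Ptgis is known as a gene enriched in tendon. The genes followed here were Ptgs1, Ptgs2, Ptges, Ptgis, Ptgds, Ptger3, Ptger4 and Ptgfr, taken by symbol, with every probe set that the platform annotation lists to 1 of them alone. Probe sets were listed for 7 of the 8 genes, 17 probe sets among the 34945 with 1 gene symbol. Ptgs1 has no listed probe set and was not analysed here.

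The samples are GFP-positive cells sorted from trypsin-dissociated forelimbs of Scx-GFP mouse embryos collected on embryonic day E11.5, E12.5 or E14.5. All groups carry the reporter, no group was treated, and a wild-type or GFP-negative fraction was not analysed here. In Scx-GFP mice the regulatory sequence of Scx, a transcription factor of tendon progenitors, drives GFP, so the sort follows the reporter and not the Scx transcript, and it does not exclude other cell types that hold the reporter protein. Each stage has 3 samples, lettered A, B and C, each on 1 Affymetrix Mouse Genome 430 2.0 array; the labels name 2 cell sorters without saying which sample went through which, and litters are not named, so p-values measure the spread between these samples, which may be technical. The values are scaled signals without a unit, and they are compared for 1 probe set across arrays and never between probe sets, because probes differ in how strongly they bind.

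The median signal of an array was between 68.7 and 118. A gene was tested where it was brighter than 90.6, the overall median signal, on 3 or more of the 9 arrays, and signals below 22.7, the 25th percentile, were raised to that floor before log2. That left 11575 genes, each represented by its brightest probe set. Tests are limma contrasts on log2 signals, and a gene is said to have risen or fallen where its p-value, adjusted by Benjamini-Hochberg over all 11575 genes, was under 0.05. Log2 differences are the later stage minus the earlier. Of 11 tendon markers, 10 rose in E14.5 against E11.5, where 22.9% of all tested genes did, while Scx itself fell, where 17.7% did. Among the 10, Tnmd had all 3 E14.5 arrays and no E11.5 array over 90.6, so its test is a description. The 3 arrays lettered A stood apart from the other 6 on the second principal component, so results for the prostaglandin genes are also given without them where a call changed.

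Among the prostaglandin genes, the terminal synthases Ptgis and Ptges and the receptors Ptger3, Ptger4 and Ptgfr were higher at E14.5 than at E11.5, by 1.86-fold, 1.51-fold, 6.39-fold, 3.79-fold and 5.20-fold. These 5 are the members that rose among the 8 listed, in a comparison in which 22.9% of all tested genes were called higher and 17.7% lower. Ptgds was tested and not called, Ptgs2 missed the filter on low signals, and Ptgs1 had no probe set. In the E14.5 against E12.5 comparison Ptgis, Ptger3 and Ptger4 rose, 3 genes, against 12.6% of all tested genes called higher. In E12.5 against E11.5 only Ptgfr rose, 1 gene, against 3.11% of all tested genes called higher. None of the tested members was called lower in any of these comparisons, in which 0.441% (E12.5 against E11.5) and 9.32% (E14.5 against E12.5) of all tested genes were. The 6 tested members had a median log2 difference of 1.41 between E14.5 and E11.5, and all tested genes a median of 0.00. Ptger3 entered the test only through its 3 E14.5 arrays, so it had to differ between stages. Ptgfr entered through 2 E12.5 and 3 E14.5 arrays and no E11.5 array. Neither the count nor the median is therefore support for a shared direction.

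**Figure D1:**
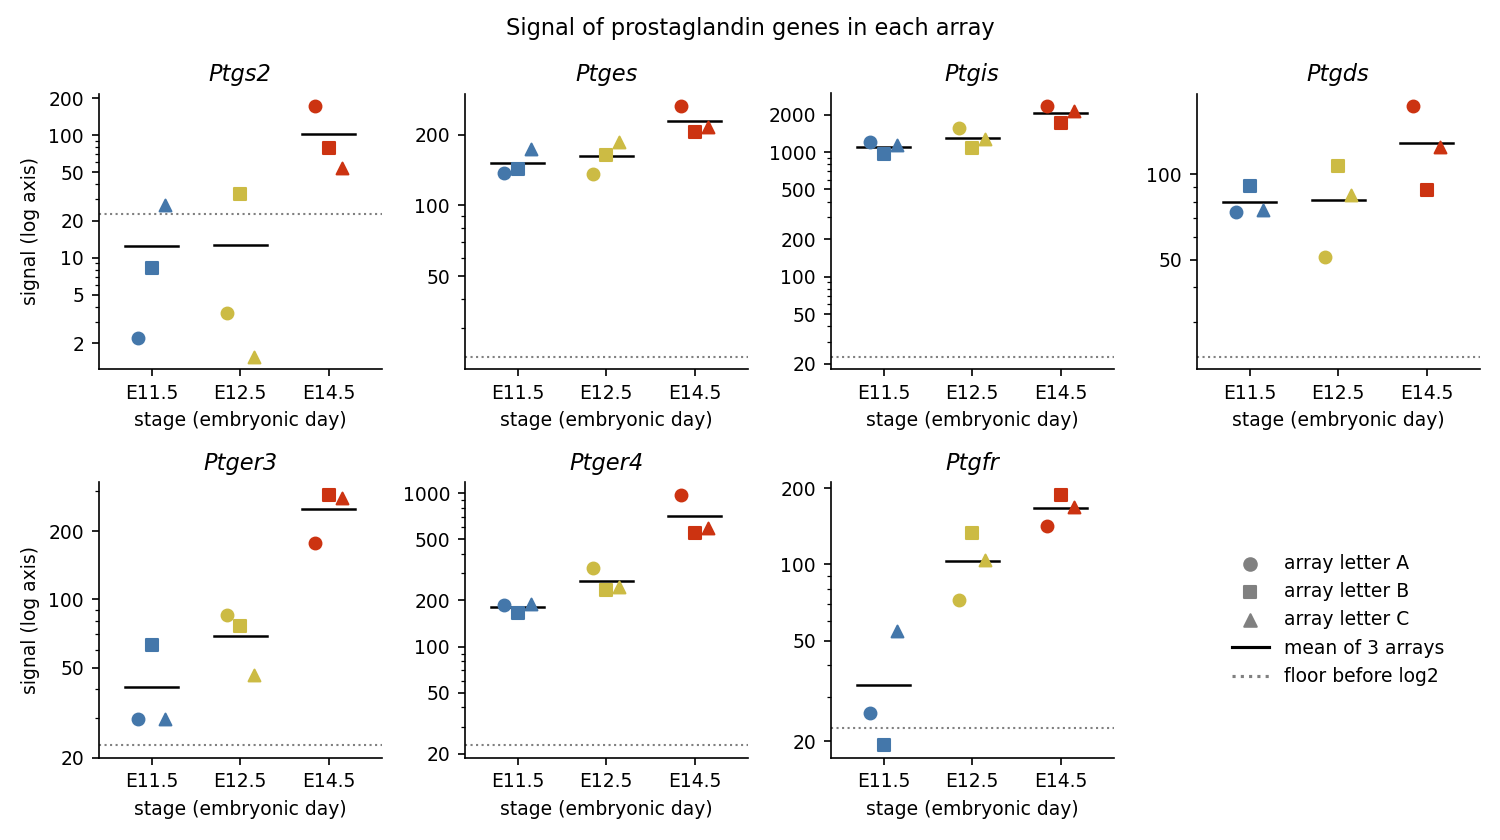
Signal of each prostaglandin gene with a listed probe set (vertical axis, log scale, no unit) by embryonic stage, for its brightest probe set. Points are single arrays, shaped by letter, black lines are the means of 3 arrays and the dotted line is the floor of 22.7 applied before log2. For Ptgis, Ptges, Ptgs2, Ptger3, Ptger4 and Ptgfr every E14.5 point lies above every E11.5 point, and for Ptgds the stages overlap.

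The promoters of Ptger4 and Ptgfr, 2 receptor genes that rose, are shown because the stretch before their start borders directly on the annotated gene. Sequences are from RefSeq (GRCm38.p6), 250 bases upstream of the start, read 5′ to 3′ on the gene's strand. Ptger4, on the minus strand, is annotated at chr15:5233399-5244187 and its printed stretch is chr15:5244188-5244437. Ptgfr, also on the minus strand, is annotated at chr3:151798610-151837528 and its stretch is chr3:151837529-151837778. Capitals mark matches, on either strand, to 5 short motifs, the E-box CANNTG, the CRE core TGACG, the TATA box TATAAA, the AP-1 site TGANTCA and the SP1 site GGGCGG.
Ptger4: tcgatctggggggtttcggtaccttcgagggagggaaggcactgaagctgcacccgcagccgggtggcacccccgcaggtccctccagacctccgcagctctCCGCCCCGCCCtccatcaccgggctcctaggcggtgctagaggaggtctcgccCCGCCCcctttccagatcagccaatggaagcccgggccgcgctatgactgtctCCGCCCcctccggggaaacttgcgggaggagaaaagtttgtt
Ptgfr: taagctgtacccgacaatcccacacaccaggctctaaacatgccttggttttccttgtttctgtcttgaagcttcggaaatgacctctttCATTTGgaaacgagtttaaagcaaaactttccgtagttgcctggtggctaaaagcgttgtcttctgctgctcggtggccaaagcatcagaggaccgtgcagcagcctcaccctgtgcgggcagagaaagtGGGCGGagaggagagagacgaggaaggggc
The Ptger4 stretch holds 4 SP1 matches, the first at 148 and the last at 42 bases before the start, of which the first pair overlap, and no E-box. The Ptgfr stretch holds 1 E-box match, 160 bases before the start, and 1 SP1 match, 30 bases before it. Of the members with a probe set, 6 had a RefSeq promoter entry. Of these, Ptgs2, Ptges, Ptgds, Ptgfr and Ptger3 hold an E-box, as do 66.2% of 32851 promoters of the same length. An SP1 match was found in Ptgs2, Ptges, Ptgfr, Ptger3 and Ptger4, against 32.7% of all promoters. Ptgds alone holds the AP-1 site, against 6.75% of all promoters, and none of the 6 holds the CRE core (17.8% of all) or the TATA box (12.4% of all). These are matches of letters and do not show that a factor binds there. Ptgis, the member annotated at chr2:167203194-167252150, is named only.

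Ptgs2 (chr1:150100031-150108234), the inducible cyclooxygenase, was near or under the floor of 22.7 at the first 2 stages. Its brighter probe set read 2.20, 8.28 and 26.9 at E11.5 (A, B and C), 3.56, 33.0 and 1.55 at E12.5, and 173, 79.1 and 53.6 at E14.5. Both early stages had 2 of 3 arrays under the floor of 22.7, and all 3 E14.5 arrays lay above all 6 earlier arrays. Only E14.5 A passed 90.6, so Ptgs2 was not tested in the main fit. With the floor applied its mean log2 signal was 1.91 higher at E14.5 than at E11.5 and 1.81 higher than at E12.5, sizes that depend on the floor. When all genes were tested without the filter, the adjusted p (limma) was 0.0163 for E14.5 against E11.5 and 0.0347 for E14.5 against E12.5. The other Ptgs2 probe set read 101, 43.2 and 35.5 at E14.5 and between 1.06 and 12.49 at E11.5, again without overlap. At E12.5 it read 27.5, 30.5 and 30.6, unlike the brighter probe set above the floor in every array and above every E11.5 array.

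Ptges (chr2:30889471-30931020), the inducible PGE2 synthase that works with Ptgs2, rose by a modest amount. Its signals were 137, 143 and 175 at E11.5, 137, 164 and 187 at E12.5, and 265, 206 and 215 at E14.5. Every E14.5 array was above every earlier array, and the first 2 stages overlapped. Mean signals were 229 ± 31.8 at E14.5 and 152 ± 20.2 at E11.5 (SD, n = 3 each), a log2 difference of 0.59 ± 0.17 (SE, adjusted p = 0.0202, limma). E14.5 against E12.5 gave 0.50 (adjusted p = 0.0641), and E12.5 against E11.5 gave 0.10 (adjusted p = 0.845), with a 95% interval of -0.29 to 0.48. The E14.5 against E11.5 call held in 15 of 22 alternative settings; without the 3 letter A arrays the log2 difference was 0.41 (adjusted p = 0.120) and without E14.5 A it was 0.48 (adjusted p = 0.0635). Another Ptges probe set that passed the filter was higher by 0.92 ± 0.20 (SE, adjusted p = 0.00878 over 20885 probe sets) at E14.5 than at E11.5 and by 1.09 (adjusted p = 0.00891) than at E12.5.

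Ptgis, the cytochrome P450 enzyme that makes prostacyclin, had signals of 1195, 969.8 and 1148 at E11.5, 1549, 1081 and 1279 at E12.5, and 2340.1, 1720 and 2138 at E14.5. The lowest E14.5 array lay above the highest array of either earlier stage, and the arrays of E11.5 and E12.5 overlapped. The B array was the lowest of its stage at all 3 stages. Mean signals were 1104 ± 119 at E11.5, 1303 ± 235 at E12.5 and 2066 ± 316 at E14.5 (SD, n = 3 each). The log2 difference was 0.90 ± 0.18 for E14.5 against E11.5 (SE, adjusted p = 0.00345, limma) and 0.67 ± 0.18 for E14.5 against E12.5 (adjusted p = 0.0256). E12.5 against E11.5 gave 0.23, with a 95% interval of -0.17 to 0.63 (adjusted p = 0.592). The E14.5 against E11.5 call held in all 22 alternative settings, with adjusted p between 0.000720 and 0.0450. The E14.5 against E12.5 call held in 16 of 22 and was lost with arrays centred on their medians (adjusted p = 0.150) and when any of E12.5 B, E12.5 C, E14.5 A, E14.5 C or the 3 letter A arrays was left out (adjusted p between 0.0694 and 0.0928).

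Ptgds (chr2:25466709-25470110), the lipocalin-type PGD2 synthase, did not pass the test in any comparison. Its signals were 73.8, 90.6 and 74.6 at E11.5, 51.1, 107 and 84.6 at E12.5, and 174, 87.9 and 125 at E14.5. The E14.5 arrays spread widely, and E14.5 B lay below the highest array of both earlier stages. The log2 difference between E14.5 and E11.5 was 0.65 ± 0.30 (SE, adjusted p = 0.117, limma), with a 95% interval of -0.03 to 1.33, so a difference of the size seen for Ptgis lies inside the interval. Without E14.5 B the adjusted p was 0.0491. Its other probe set was under the floor in 8 of 9 arrays and read 72.1 in E14.5 A.

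Of the receptors, Ptger4 and Ptger3 both bind PGE2 but couple to different G proteins: Ptger4 raises cyclic AMP, whereas Ptger3 mainly lowers it. Ptger4 had signals of 188, 165 and 190.0 at E11.5, 327, 233 and 243 at E12.5, and 981, 548 and 594 at E14.5. The 3 stages did not overlap, and E14.5 A was well above the other 2 E14.5 arrays. Means were 181 ± 14.0 at E11.5, 268 ± 51.7 at E12.5 and 708 ± 238 at E14.5 (SD, n = 3 each). The log2 difference was 1.92 ± 0.23 for E14.5 against E11.5 (SE, adjusted p = 0.000205, limma) and 1.37 ± 0.23 for E14.5 against E12.5 (adjusted p = 0.00330), and both calls held in all 22 alternative settings. E12.5 against E11.5 gave 0.55 ± 0.23 (adjusted p = 0.274), with no overlap of the arrays and no call. Without E14.5 A the E14.5 against E11.5 difference was 1.66 (adjusted p = 0.000269). A dimmer Ptger4 probe set read 41.1 to 65.1 at E14.5 and 16.9 to 35.3 at E11.5, and it was not tested.

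Ptger3 (chr3:157566821-157644758) was low at the first 2 stages and clearly higher at E14.5. Its signals were 29.8, 63.1 and 29.6 at E11.5, 84.9, 76.1 and 46.1 at E12.5, and 177, 290.8 and 281 at E14.5. All E14.5 arrays lay above all earlier ones, while the E11.5 and E12.5 arrays overlapped. Means were 40.8 ± 19.3 at E11.5, 69.1 ± 20.3 at E12.5 and 249.8 ± 62.9 at E14.5 (SD, n = 3 each). The log2 difference was 2.68 ± 0.35 for E14.5 against E11.5 (SE, adjusted p = 0.000343, limma) and 1.87 ± 0.35 for E14.5 against E12.5 (adjusted p = 0.00545). E12.5 against E11.5 gave 0.81 ± 0.35 (adjusted p = 0.292). Ptger3 passed the filter through its E14.5 arrays alone, so the lack of overlap follows from the filter and these tests are a description. With every gene tested and no filter, the adjusted p was 0.00385 for E14.5 against E11.5 and 0.0266 for E14.5 against E12.5. The other Ptger3 probe set stayed under the floor in all 9 arrays, between 1.06 and 5.34, and so gave no measurement of that part of the gene.

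Ptgfr, the receptor for PGF2α, was the member that rose in the first interval. Its brightest probe set read 25.9, 19.3 and 54.8 at E11.5, 72.1, 134 and 104 at E12.5, and 141, 189 and 169 at E14.5. The 3 stages did not overlap, and at E11.5 only the C array was clearly above the floor. No E11.5 array passed the filter signal of 90.6, while 2 E12.5 and all 3 E14.5 arrays did, so the E14.5 against E11.5 test is a description. Means were 33.4 ± 18.9 at E11.5, 103 ± 30.8 at E12.5 and 167 ± 23.9 at E14.5 (SD, n = 3 each). E12.5 against E11.5 gave a log2 difference of 1.65 ± 0.34 (SE, adjusted p = 0.0325, limma), and E14.5 against E11.5 gave 2.38 ± 0.34 (adjusted p = 0.000551). E14.5 against E12.5 gave 0.73 ± 0.34 (adjusted p = 0.151), with no overlap and no call.

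The early call for Ptgfr held in 10 of 21 alternative settings. Leaving out E12.5 B gave an adjusted p of 0.126, E12.5 C 0.118, E11.5 A 0.0986, E11.5 B 0.0999, E14.5 B 0.0544, E14.5 C 0.0503, and the 3 letter A arrays 0.0902. With the floor raised to the median signal the E12.5 against E11.5 difference was 0.25 (adjusted p = 0.538), and the E14.5 against E11.5 difference was 0.87 (adjusted p = 0.00211). The E14.5 against E11.5 call held in all 21. When each probe set was fitted on its own, the 3 Ptgfr probe sets that passed the filter were higher at E14.5 than at E11.5 by 2.38, 2.23 and 2.12 on the log2 scale (adjusted p between 0.00122 and 0.00180). None of the 3 was called in E12.5 against E11.5, where their differences were 1.65, 1.08 and 1.23 (adjusted p = 0.0640, 0.188 and 0.140). The other 2 Ptgfr probe sets were too dim to test and were higher by 0.85 and 0.75 with the floor applied.

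**Figure D2:**
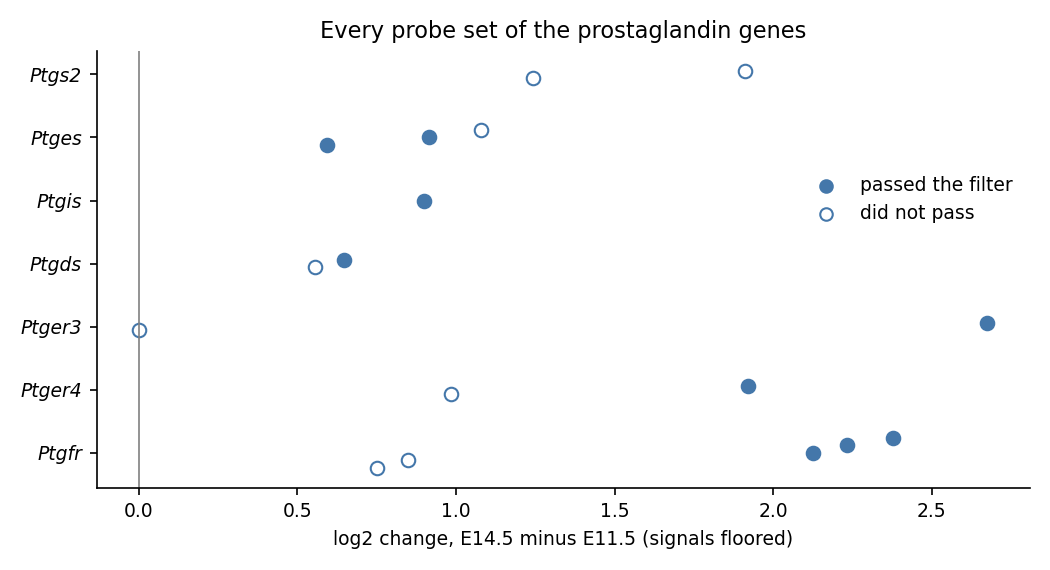
Log2 difference between E14.5 and E11.5 (horizontal axis) for each of the 17 probe sets of the prostaglandin genes, in rows by gene. Filled points passed the filter on low signals and open points did not. No probe set lies below 0, and the 2 probe sets of Ptger3 differ because 1 was under the floor in every array and so sits at 0.

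Across the members, the interval in which most of the difference lay was not settled by a test. The change between E14.5 and E12.5 minus that between E12.5 and E11.5 was 0.81 for Ptger4 (unadjusted p = 0.0684, adjusted p = 0.493, limma), 1.06 for Ptger3 (adjusted p = 0.562) and -0.93 for Ptgfr (adjusted p = 0.611). The same difference of steps gave adjusted p between 0.653 and 0.672 for Ptgis, Ptges and Ptgds. No member was called, where 0.769% of all tested genes were, and the 2 intervals differ in length, 1 day and 2 days. Ptgis, Ptges, Ptger4 and Ptgfr had every E14.5 array above every E11.5 array, where 27.3% of all tested genes did, and every E14.5 array above every E12.5 array, where 20.6% did. Ptger3 did so too, which the filter on low signals fixed. Ptgfr had all 3 E14.5 arrays and no E11.5 array over that filter, so its separation of these 2 stages follows from the filter as well. In E12.5 against E11.5, Ptgfr and Ptger4 had every E12.5 array above every E11.5 array, where 15.8% of all tested genes did.

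**Figure D3:**
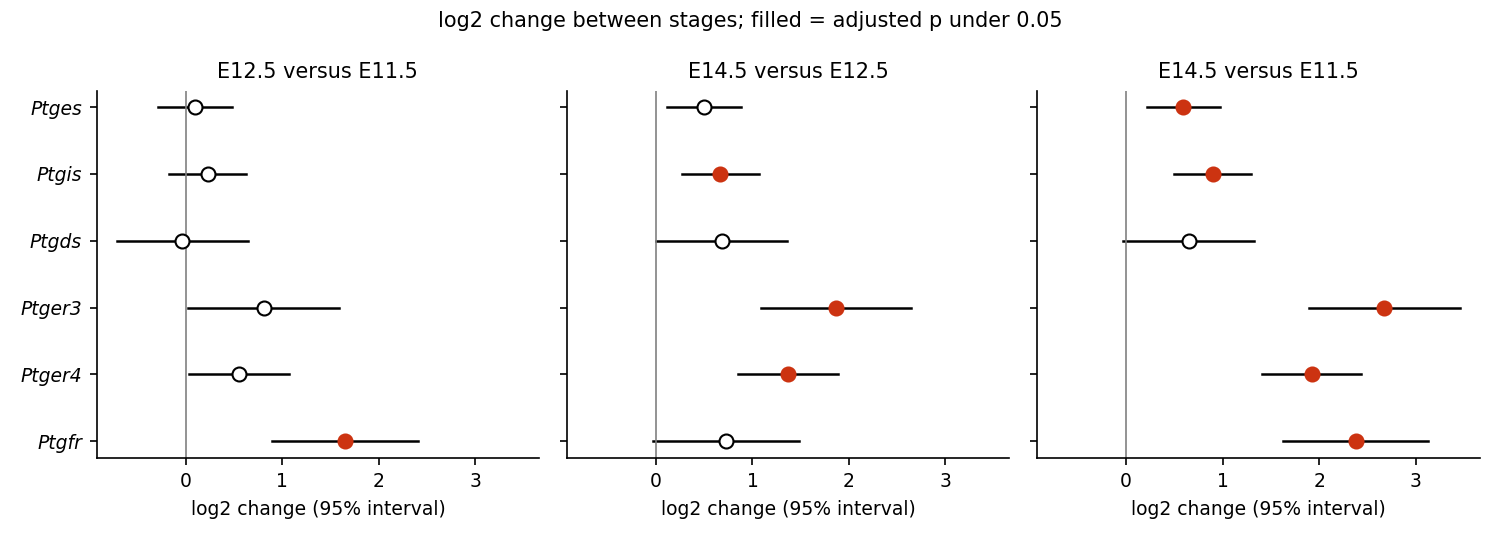
Log2 difference between stages (E12.5 against E11.5, E14.5 against E12.5 and E14.5 against E11.5) for the 6 tested prostaglandin genes, with 95% intervals from limma. For E14.5 against E11.5 the intervals of Ptgis, Ptges, Ptger3, Ptger4 and Ptgfr lie above 0, and that of Ptgds reaches -0.03.

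The array E14.5 A was the highest of its stage for Ptgis, Ptgs2, Ptges, Ptgds and Ptger4 and the lowest for Ptgfr and Ptger3. The same array had the highest summed signal of 20 immediate early genes, transcription factors and stress genes that respond within minutes to stimuli that include cell dissociation. Their sum was 128440.5 in E14.5 A, 76954 in E14.5 B and 57560 in E14.5 C, against 52830 in E11.5 A, 16310 in E11.5 B and 20518 in E11.5 C. Of 19 tested immediate early genes, 10 rose in E14.5 against E11.5, where 22.9% of all tested genes did, and none fell. The risers included Fos by 2.50, Atf3 by 3.53 and Klf4 by 3.14 on the log2 scale. Another of them, Hspa1a, passed the filter through its E14.5 arrays alone and had to differ. Atf3 had every E14.5 array and no E11.5 array over that filter, so its test against E11.5 is a description. The count was 17 with the array letter as a block and 5 with no filter, where neither Fos nor Hspa1a was called. Ptgs2 is itself an immediate early gene in many cells. The summed signal of 8 cartilage genes was 68431 in E14.5 A, 15853 in E14.5 B and 7888 in E14.5 C, against 15409 to 18154 at E11.5. Of these 8 genes, all tested, 5 rose in E14.5 against E11.5 and none fell, with a median log2 difference of 3.40. Of all tested genes, 22.9% rose and 17.7% fell. The part of either group in the values of Ptgs2, Ptges or Ptger4 was not tested. Without E14.5 A, the E14.5 against E11.5 differences were 0.80 for Ptgis (adjusted p = 0.0130), 2.91 for Ptger3 (adjusted p = 0.000676) and 2.49 for Ptgfr (adjusted p = 0.00178).

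Several cell types of the limb other than tendon cells also make or sense prostanoids, and their markers moved over the same stages. In E14.5 against E11.5, 22.9% of all tested genes were called higher and 17.7% lower. Because these are bulk samples, a change in the number of cells of a type and a change in RNA per cell cannot be told apart. Endothelial cells are a well-known source of prostacyclin. Of 9 endothelial markers 5 were tested and 4 rose in E14.5 against E11.5, among them the receptor gene Tek, at 507 ± 211 in E14.5 and 50.9 ± 4.39 in E11.5 arrays (SD, n = 3 each), and Cdh5, at 118.5 ± 12.01 in E14.5 and 37.1 ± 24.5 in E11.5 arrays. Tek, Cdh5 and Emcn, another endothelial marker, had all 3 E14.5 arrays and no E11.5 array over the filter on low signals. Their tests against E11.5 are therefore descriptions. The summed signal of the 9 endothelial markers was 1317 to 1641 at E14.5 and 444 to 783 at E11.5. Pecam1 averaged 50.03 at E14.5 and 47.1 at E11.5, Tie1 averaged 9.88 at E14.5 and 11.4 at E11.5, and neither was tested.

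Of 9 blood and macrophage markers 5 were tested and 2 rose, the macrophage genes Csf1r by 0.86 and Adgre1 by 1.07 on the log2 scale, while the summed signal was 766 to 1395 at E14.5 and 720 to 2999 at E11.5. Of 4 mast cell and platelet markers, Cpa3, Pf4 and Itga2b rose and Kit fell, and the sum was 1046 to 1425 at E14.5 and 678 to 737 at E11.5. Mast cells are known to make PGD2. The mast cell protease gene Cpa3 averaged 421 ± 134 at E14.5 and 13.2 ± 8.76 at E11.5 (SD, n = 3 each). Of 7 pericyte and smooth muscle markers 6 were tested, 4 rose and Notch3 fell, and the sum was 5086 to 8590 at E14.5 and 4582 to 5806 at E11.5. The smooth muscle gene Myh11 averaged 19.4 at E14.5 and 25.04 at E11.5, near the floor. In the same comparison 5 of 7 tested skeletal muscle markers, 3 of 5 epidermal, 3 of 5 fibroblast and 1 of 2 bone markers rose, the epidermal Krt8 fell, and of 2 nerve markers 1 rose and 1 fell. Among these risers Cpa3, the pericyte gene Kcnj8, the epidermal Cdh1, the bone gene Alpl and the fibroblast gene Dpt passed the filter through their E14.5 arrays alone and had to differ. Csf1r, Adgre1, Pf4, the skeletal muscle gene Pax7 and the fibroblast gene Cd34 had all 3 E14.5 arrays and no E11.5 array over that filter. Their tests against E11.5 are therefore descriptions. The part of these cell types in the signals of Ptgis, Ptgds, Ptger3, Ptger4 and Ptgfr was not tested.

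The rest of the pathway was read from lists of named genes. The counts for each list stand beside 22.9% of all tested genes called higher and 17.7% called lower in E14.5 against E11.5. Of 18 phospholipases A2, 17 had a probe set and 7 were tested; 2 rose in E14.5 against E11.5 and none fell. These were Pla2g7, a secreted enzyme that degrades platelet-activating factor, by 1.11 ± 0.27 (SE, adjusted p = 0.00929, limma), and the lysosomal Pla2g15, by 0.62 ± 0.13 (adjusted p = 0.00510). Pla2g7 had all 3 E14.5 arrays and no E11.5 array over the filter on low signals, so its test is a description. Neither Pla2g7 nor Pla2g15 is the enzyme that supplies the cyclooxygenases. That enzyme, the cytosolic Pla2g4a, averaged 557 ± 149 at E14.5 and 409 ± 23.3 at E11.5 (SD, n = 3 each), a log2 difference of 0.41 (adjusted p = 0.151); without E14.5 A the difference was 0.65 (adjusted p = 0.0116). The median over the 7 tested phospholipases was 0.29.

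Of 8 other prostanoid synthases, 6 had a probe set and 3 were tested, and none was called in E14.5 against E11.5. The constitutive PGE2 synthase Ptges2 averaged 297 ± 22.0 at E14.5 and 396 ± 30.5 at E11.5 (log2 difference -0.42, adjusted p = 0.0687), opposite in sign to Ptges, without a call. Prxl2b, which makes PGF2α, differed by 0.17 (adjusted p = 0.412). Cbr1, a carbonyl reductase that can convert PGE2 to PGF2α, fell by 0.67 in E14.5 against E12.5 (adjusted p = 0.0270), with means of 1672 ± 118 at E14.5 and 2691 ± 533 at E12.5 (SD, n = 3 each). Hpgds, the PGD2 synthase of blood cells, was not tested and averaged 40.4 at E14.5 and 26.6 at E11.5.

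Of 7 other genes listed with the prostanoid receptors, 3 were tested and 2 rose in E14.5 against E11.5. Tbxa2r, the thromboxane receptor, read 144, 192 and 242 at E14.5, against 109, 42.8 and 45.3 at E11.5, without overlap. Its log2 difference was 1.66 ± 0.41 (SE, adjusted p = 0.00986, limma), called in all 22 alternative settings. Ptgfrn, a membrane protein that is named for its inhibition of PGF2α binding to Ptgfr and is not itself a receptor, rose by 0.42 ± 0.14 (adjusted p = 0.0396), a call that held in 10 of 22 alternative settings. Ptgir, the receptor for the prostacyclin that Ptgis makes, read 119.8, 93.8 and 133 at E14.5, against 40.1, 43.5 and 131 at E11.5. The high E11.5 C array made the stages overlap, and the log2 difference of 0.90 ± 0.39 was not called (adjusted p = 0.0938). Without E11.5 C it was 1.45 (adjusted p = 0.000608), and with the array letter as a block the adjusted p was 0.0451.

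The remaining PGE2 receptors, Ptger1 and Ptger2, were too dim to test. Ptger2, which like Ptger4 raises cyclic AMP, read 48.3, 70.6 and 58.1 at E14.5, against 18.6, 2.44 and 19.8 at E11.5, and all 3 E11.5 arrays were under the floor. Ptger1 lay between 5.19 and 36.5 at E14.5 and between 0.757 and 15.8 at E11.5. The PGD2 receptor Ptgdr read 41.3 to 98.2 at E14.5 and 36.7 to 50.2 at E11.5, with overlap. The second PGD2 receptor, Ptgdr2, was under the floor in all E14.5 and all E11.5 arrays.

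Genes that take up, export or degrade prostaglandins moved in both directions. All 7 on the list were tested; in E14.5 against E11.5, 3 rose and 1 fell, with a median log2 difference of 0.17. Slco2a1, the prostaglandin transporter that carries PGE2 and PGF2α into cells for breakdown, read 299, 249 and 322 at E14.5, against 23.3, 49.7 and 60.9 at E11.5, far apart and without overlap. Like Ptger3, it passed the filter on low signals through its E14.5 arrays alone, so it had to differ between stages. Its log2 difference was 2.80 ± 0.33 (SE, adjusted p = 0.000205, limma) for E14.5 against E11.5 and 2.07 (adjusted p = 0.00271) for E14.5 against E12.5. With every gene tested and no filter, the adjusted p for E14.5 against E11.5 was 0.00279. Hpgd, the dehydrogenase that inactivates prostaglandins, averaged 279 ± 117 at E14.5 and 118 ± 37.5 at E11.5 (SD, n = 3 each) and rose by 1.18 ± 0.41 (SE, adjusted p = 0.0418), although single arrays overlapped and the call held in 14 of 21 alternative settings. Slco3a1, a related transporter, rose by 0.47 ± 0.15 (adjusted p = 0.0330), a call that held in 13 of 22. Abcc4, an exporter of prostaglandins, fell by 0.95 on the log2 scale (adjusted p = 0.00294), with means of 120.2 ± 14.8 at E14.5 and 231 ± 12.6 at E11.5, and this call held in all 22.

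**Figure D4:**
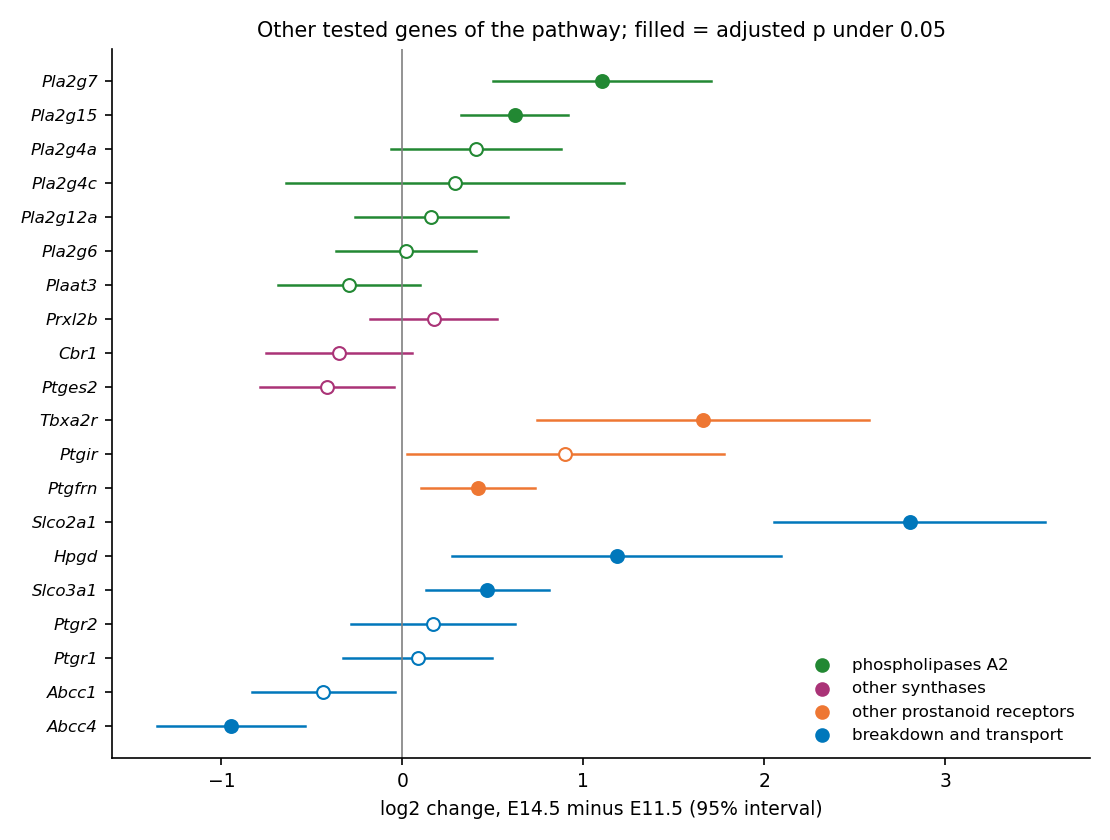
Log2 difference between E14.5 and E11.5 (horizontal axis) with 95% intervals from limma for the tested genes of the prostaglandin pathway, grouped by role. Filled points were called at an adjusted p under 0.05; Slco2a1, which passed the filter on low signals through its E14.5 arrays alone, stands at 2.80 and Abcc4 at -0.95, and none of the 3 tested other synthases was called.

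Downstream of the receptors, 13 of 16 listed genes of cyclic AMP signalling were tested. In E14.5 against E11.5, 7 rose, where 22.9% of all tested genes did, and none fell, where 17.7% did. The 13 had a median log2 difference of 0.83. The adenylyl cyclases Adcy7, Adcy9 and Adcy3, which make cyclic AMP, rose by 1.90 ± 0.16, 1.30 ± 0.16 and 0.83 ± 0.18 (SE, adjusted p = 2.2e-05, 0.000233 and 0.00554, limma). Adcy7 averaged 599 ± 53.3 at E14.5 and 161 ± 17.6 at E11.5 (SD, n = 3 each). The phosphodiesterases Pde4b and Pde4d, which degrade cyclic AMP, rose by 2.02 ± 0.32 and 0.71 ± 0.19. The Pde4d call was lost with arrays centred on their medians (adjusted p = 0.121, limma) and without the letter A arrays (adjusted p = 0.101). Crem and Nr4a1, which are cyclic AMP targets and also respond to other stimuli, rose by 0.99 and 2.64. The Nr4a1 call held in 17 of 22 alternative settings and the Crem call in 18 of 21; without E14.5 A the Nr4a1 difference was 1.91 (adjusted p = 0.0587). The kinase subunit Prkar1a and the cyclase Adcy6 were not called, with differences of -0.16 and -0.05. Of the 3 nuclear receptors on a list of those that bind prostanoids or their products, only Ppard was tested, with a difference of 0.05.

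Of 12 genes of glucocorticoid and inflammatory control, which in many cells set the level of Ptgs2 and phospholipase activity, 7 were tested. In E14.5 against E11.5, 5 rose, where 22.9% of all tested genes did, and none fell, where 17.7% did. Anxa1, a glucocorticoid-induced protein known to restrain phospholipase A2, averaged 2436 ± 812 at E14.5 and 49.2 ± 16.6 at E11.5 (SD, n = 3 each) and rose by 5.64 on the log2 scale (adjusted p = 1.7e-06, limma). Nr3c1, the glucocorticoid receptor, averaged 1399 ± 204 at E14.5 and 144 ± 9.64 at E11.5 and rose by 3.27. Il1r1, the interleukin 1 receptor, averaged 382 ± 121 at E14.5 and was under the floor at E11.5 (3 of 3 arrays). Anxa1 and Il1r1 passed the filter through E12.5 and E14.5 arrays and no E11.5 array, so their tests against E11.5 are descriptions. Il6st, the shared receptor chain of interleukin 6 family cytokines, rose by 1.71 and Nfkbia, an inhibitor of NF-κB, by 0.90. The other 2 tested genes, Tsc22d3 and Rela, were not called. Tsc22d3 averaged 1909 ± 500 at E14.5 and 1822 ± 263 at E11.5, and Rela 1498 ± 349 and 1153 ± 126. Of 13 leukotriene and lipoxygenase genes, the other branch of arachidonic acid metabolism, 3 were tested and none was called, with a median difference of 0.07.

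For each tested member the 3 genes with the most similar pattern were found among all tested genes, as the smallest root mean square difference between log2 signals over the 9 arrays after each gene was centred on its own mean. For Ptgis these were Tspan9, Sgce and Serpinf1, at 0.0892, 0.101 and 0.102. For Ptger4 they were Crtap, Anxa5 and Cltb, at 0.147, 0.162 and 0.165. For Ptges they were Slc7a2, Tmem184b and Adck2, between 0.0862 and 0.0938. For Ptgfr they were Trim16, Egfr and Slc14a1, at 0.237, 0.245 and 0.248, and for Ptger3 they were Gxylt2, Vstm2b and Kcnip4, between 0.309 and 0.342. For Ptgds they were Grm4, Clock and Cul9, between 0.167 and 0.197. Among the members themselves the closest pair was Ptgis and Ptges, at 0.270, and the most distant was Ptgds and Ptger3, at 1.03. The 9 arrays are shared by all these comparisons, so the distances describe these samples only.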

How the data were processed

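Gene expression was measured on 9 Affymetrix arrays, 3 per stage. The authors deposited 1 intensity per probe set, a MAS5 signal; the submitters' processing notes name Affymetrix Expression Console 1.1; the deposited intensities have a trimmed mean of 500 on every array. MAS5 scales arrays without equalizing their distributions, so median signals differ. Signals had a floor of 22.7 before log2, which compresses differences of dim genes. Of 45101 probe sets, 34945 are listed to 1 symbol, 932 to several and 9160 are unlisted (64 are controls). The brightest probe set stood for a gene (an _x_at set only where it was the only kind).

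Genes over 90.6 in at least 3 arrays were fitted with limma 3.58.1 in R 4.3.3, 1 mean per stage and 6 residual degrees of freedom, with Benjamini-Hochberg adjustment over 11575 genes, and the code was tested on simulated data. Array number limits precision. Named are every member and the genes of each pathway list called in E14.5 against E11.5 (for the immediate early list, 3 examples and Hspa1a). Tested genes on the other side of a member and some that were not called are named too. Members and lists were chosen with earlier results of these data known. Letters pair arrays by the correlation of their deviations in E12.5 against E11.5 (0.520, 0.133 and 0.332 for A, B and C) and E14.5 against E12.5 (0.310, 0.121 and 0.289); in E14.5 against E11.5 (0.313, -0.01 and 0.238) they do not. Alternatives changed the floor, filter, scaling, probe sets, prior, weights, covariate, block and arrays.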

Additional observations from a re-analysis of the deposited data

How the results depend on the processing

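The counts of members that rose were recomputed under each alternative, and no called value changed sign; the uncalled E12.5 against E11.5 differences of Ptges (-0.01 to 0.22) and Ptgds (-0.27 to 0.26) took either sign. For E12.5 against E11.5 the count of 1 became 0 with the floor at the median signal, with no filter, with the mean of all probe sets of a gene, with every probe set fitted separately, with a fit of the 6 arrays of those stages alone, and without the 3 letter A arrays; leaving out 1 array gave 0 to 1. For E14.5 against E12.5 the count of 3 became 2 when arrays were centred on their medians or the letter A arrays were dropped (Ptgis lost), and 4 with the higher floor (Ptgfr gained), the 3′ to 5′ covariate (Ptges gained) and no filter (Ptgs2 gained); leaving out 1 array gave 2 to 3. For E14.5 against E11.5 the count of 5 became 3 with the mean of all probe sets, because Ptgfr and Ptger3 then missed the filter, 4 with median centring, quantile normalization, a trended and robust prior and without the letter A arrays (Ptges lost), and 6 with no filter (Ptgs2 gained); leaving out 1 array gave 4 to 6. With the replicate block (the array letter) the counts were 1, 3 and 5, and no call on a member changed. Centring arrays on their medians moved the median log2 difference of all tested genes between E14.5 and E11.5 by -0.23, so a call lost there, such as Ptges at 0.37 (adjusted p = 0.168), lies beside that shift. Of the other lists in E14.5 against E11.5, the 10 immediate early genes that rose became 17 with the replicate block and 5 with no filter, and the 5 glucocorticoid and inflammatory genes became 3 with the mean of probe sets. The 2 phospholipases that rose became 1 with the higher floor, median centring and quantile normalization. The 2 other receptor genes became 1 with median centring, the mean of probe sets, separate probe sets, the 6 arrays and without the letter A arrays. The 3 transport and breakdown genes became 1 with the mean of probe sets, and the 1 that fell became 2 with median centring, quantile normalization, array weights and without the letter A arrays. Of synthases, 1 fell with median centring or the covariate, and of cyclic AMP genes 1 fell with median centring or the replicate block. Signals near the floor limit Ptgs2, Ptgfr and Ptger3 at E11.5, where the size of a difference depends on the floor. The cause of the other lost calls was not tested.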
